A study of Mus with 6 samples.

Results

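The let-7 family was followed through small RNA libraries of mouse adipocytes as 9 mature guide strands: mmu-let-7a-5p, mmu-let-7b-5p, mmu-let-7c-5p, mmu-let-7d-5p, mmu-let-7e-5p, mmu-let-7f-5p, mmu-let-7g-5p, mmu-let-7i-5p and mmu-miR-98-5p. They were taken by name from the deposited count tables and make up 9 of the 929 known mature miRNAs that all 6 tables list; the prefix mmu, for mouse, is left off below. There were 3 control libraries and 3 from a model group under chronic intermittent hypoxia (CIH), in which oxygen falls and recovers many times over, as it does in sleep apnoea. The same labels of wild-type genotype, C57BL/6 strain and adipocytes as the cell type apply to all 6. Neither age, sex and fat depot nor the length and depth of the exposure is given in the sources used here. It is also not given whether the libraries of a group came from separate animals, so p-values measure the spread between libraries, and that spread may be technical.

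let-7 miRNAs repress messenger RNAs by pairing through a seed at the 5′ end that the family shares, and they build up as cells leave the cell cycle and differentiate. The proteins LIN28A and LIN28B block the maturation of let-7 precursors in embryonic cells and in many tumours. Known targets include Hmga2, a chromatin protein that favours the expansion of fat cell precursors, and genes of insulin and IGF signalling, which is why the family is studied in adipose tissue and glucose control. Each precursor hairpin gives a guide strand, here the 5p arm, which is loaded into Argonaute, and a passenger strand, the 3p arm, which is mostly degraded.

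The 9 guide strands come from 12 precursor genes at 8 loci on 7 chromosomes (RefSeq, GRCm38.p6). Mirlet7a-1, Mirlet7f-1 and Mirlet7d lie together within 2261 bp on chromosome 13 (48536012 to 48538272). Mirlet7f-2 and Mir98 lie inside the ubiquitin ligase gene Huwe1 on chromosome X (151912346 to 151913321). Mirlet7g (chromosome 9, 106178840 to 106178927) lies inside Wdr82, and Mirlet7e (chromosome 17, 17830352 to 17830444) inside Spaca6, between Mir99b and Mir125a. Mirlet7a-2 is found between Mir100 and Mir125b-1 on chromosome 9 (41536716 to 41536811), inside the long noncoding RNA gene Mir100hg. Mirlet7c-1 lies between Mir99a and Mir125b-2 on chromosome 16 (77599657 to 77599750). Mirlet7b and Mirlet7c-2 lie within 801 bp on chromosome 15 (85706603 to 85707403), inside the noncoding gene Lncppara. Mirlet7i stands alone on chromosome 10 (122985640 to 122985724). Mature let-7a-5p, let-7c-5p and let-7f-5p can each come from a pair of loci, and a count of the mature strand does not say which. Close members differ by few bases, and how reads that match more than 1 name were counted is not given in the sources used here, so the split between close members is uncertain.

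Library totals lay between 6291101 and 11264151 counts. The libraries numbered 3 stood apart in both groups: miR-148a-3p took 49.4% of control library 3 and 24.9% of CIH library 3, while miR-21a-5p led the other 4, and their tables list 1186 names where the others list 1053. The libraries numbered 1 and 2 are therefore described apart from the pair numbered 3, a pair with 1 library a group and hence no replicates. No miRNA is specific to adipocytes. The 5 miRNAs looked at that are abundant in them without being specific summed to 153854 to 597090 CPM. CPM is counts divided by the library total and multiplied by 1000000. In control library 3, the highest, miR-148a-3p alone was at 493520 CPM. The 4 miRNAs of leukocytes summed to at most 4.29 CPM. Other lists were higher. The 4 of neurons summed to 208 to 521 CPM and the 7 of epithelium to 18.6 to 409 CPM. The 3 of erythroid cells summed to 21.0 to 154 CPM and the 3 of fibroblasts and stroma to 6077 to 65453 CPM.

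The guide strands summed to 4.26%, 3.68% and 4.94% of the reads of controls 1, 2 and 3, and to 3.65%, 2.88% and 9.68% of those of the CIH libraries, each in the order of their numbers. CIH library 3 was the highest and CIH library 2 the lowest, so the control values lay inside the range of the CIH values. The means were 4.29% ± 0.632 for control and 5.40% ± 3.72 for CIH (SD, n = 3 each). This excess of 1.11 percentage points for CIH turned to -1.03 when CIH library 3 was left out. In the libraries numbered 1 and 2 alone the mean was 3.97% for control and 3.26% for CIH. After TMM scaling, which sets libraries level on the bulk of their miRNAs and not on their totals, the difference over 6 libraries was 0.101 percentage points. Counting error is small at this depth: the 95% Wilson interval of the family share spanned at most 0.0345 percentage points, and that of a member's share of the family at most 0.369.

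let-7f-5p was the leading member in every library, followed by let-7i-5p and let-7g-5p. Controls 1, 2 and 3 held 15979.6, 14686 and 19528 CPM of mmu-let-7f-5p, and the CIH libraries held 13986, 10992 and 37272 CPM. CIH library 3 was above every control, and the other 2 CIH libraries were below every control. For mmu-let-7i-5p the controls held 12122, 9563 and 17395 CPM against 10015, 8534 and 32744 CPM. For mmu-let-7g-5p the figures were 6332, 5247 and 7595 CPM against 5304, 4713 and 11936 CPM. For all 3 of these members the library numbered 3 was the highest of its group.

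let-7a-5p and let-7c-5p formed a middle tier whose order depended on the set. mmu-let-7a-5p was found at 3327, 2876 and 1034 CPM in the controls and at 3025, 2103 and 5257 CPM under CIH. Control library 3 was the lowest of the 6 and CIH library 3 the highest. mmu-let-7c-5p kept nearly one level in the controls (2576, 2546 and 2605 CPM), while under CIH it was at 2127, 1208 and 6168 CPM. let-7a-5p exceeded let-7c-5p in the 4 libraries numbered 1 and 2, and let-7c-5p exceeded let-7a-5p in both libraries numbered 3.

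The remaining 4 members were scarcer. mmu-let-7d-5p was at 798, 627 and 228 CPM in the controls and at 745, 503 and 983 CPM under CIH, with control library 3 again the lowest. mmu-let-7e-5p was at 486, 474 and 432 CPM in the controls and at 399, 296 and 1522 CPM under CIH, so that CIH library 3 lay well above the other 5. mmu-let-7b-5p spanned 454 to 692 CPM in the controls and 351 to 656 CPM under CIH. mmu-miR-98-5p, the member named outside the let-7 series, spanned 172 to 247 CPM and 139 to 354 CPM, and it was the lowest member in all 6 libraries. The order of let-7b-5p, let-7d-5p and let-7e-5p changed between libraries, and their control means (584 ± 121, 551 ± 292 and 464 ± 28.7 CPM, SD, n = 3 each) differ by less than the widest of these spreads.

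**Figure D1:**
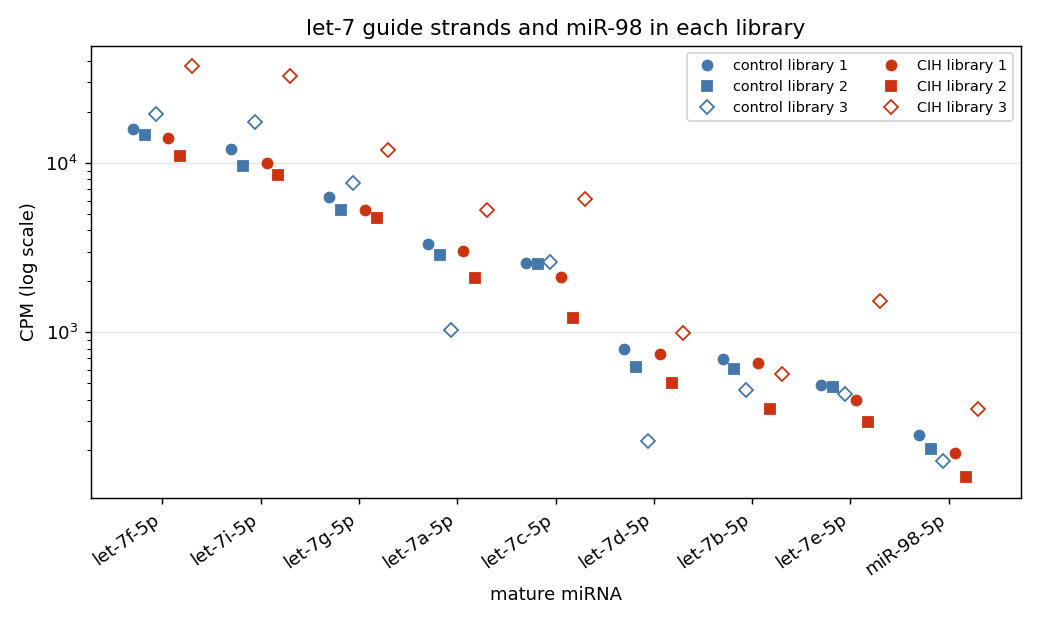
CPM (log scale) of each guide strand in each library; blue marks control, red CIH, and open diamonds the libraries numbered 3. let-7f-5p, let-7i-5p and let-7g-5p lead in every library, and control library 3 falls away from the other controls for let-7a-5p (1034 CPM) and let-7d-5p (228 CPM).

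Read as shares of the family, most of the make-up varied little among the libraries numbered 1 and 2. let-7f-5p took 37.5% to 39.9% of the guide reads in all 6 libraries, the narrowest relative range of the 9 members. Together with let-7i-5p it took 65.8% to 67.7% in the 4 libraries numbered 1 and 2, and 74.7% and 72.3% in control and CIH libraries 3. let-7a-5p took 7.29% to 8.30% of the family in the libraries numbered 1 and 2, against 2.09% in control library 3 and 5.43% in CIH library 3. let-7d-5p took 1.70% to 2.04% there, against 0.461% and 1.02% in the pair numbered 3. The ratio of let-7f-5p to let-7a-5p reads was accordingly 4.62 to 5.23 in the libraries numbered 1 and 2, 18.9 in control library 3 and 7.09 in CIH library 3, although Mirlet7a-1 and Mirlet7f-1 are neighbours.

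None of the 9 shares separated CIH from control over the 6 libraries. The two-sided exact permutation p ran from 0.4 to 0.9 over the 9 members, with an adjusted p of 0.9 for each (Benjamini-Hochberg over 9), and 3 libraries against 3 cannot go below 0.1. Over the pairs of equal number, let-7d-5p was the only one of the 9 members with a higher share under CIH in 3 of 3 (exact sign-flip permutation p = 0.25, the smallest that 3 pairs allow). In the libraries numbered 1 and 2 the difference furthest below 0 was that of let-7c-5p, at -1.47 percentage points (6.05% and 6.91% for control, 5.83% and 4.19% for CIH). The one furthest above 0 was that of let-7i-5p, at 1.31 percentage points. With 1 library left out they ran from -2.29 to -0.65 (without CIH library 1 and without CIH library 2) and from 0.051 to 2.57 (without control library 2 and without control library 1), and no test was run on these, with 2 libraries a group.

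**Figure D2:**
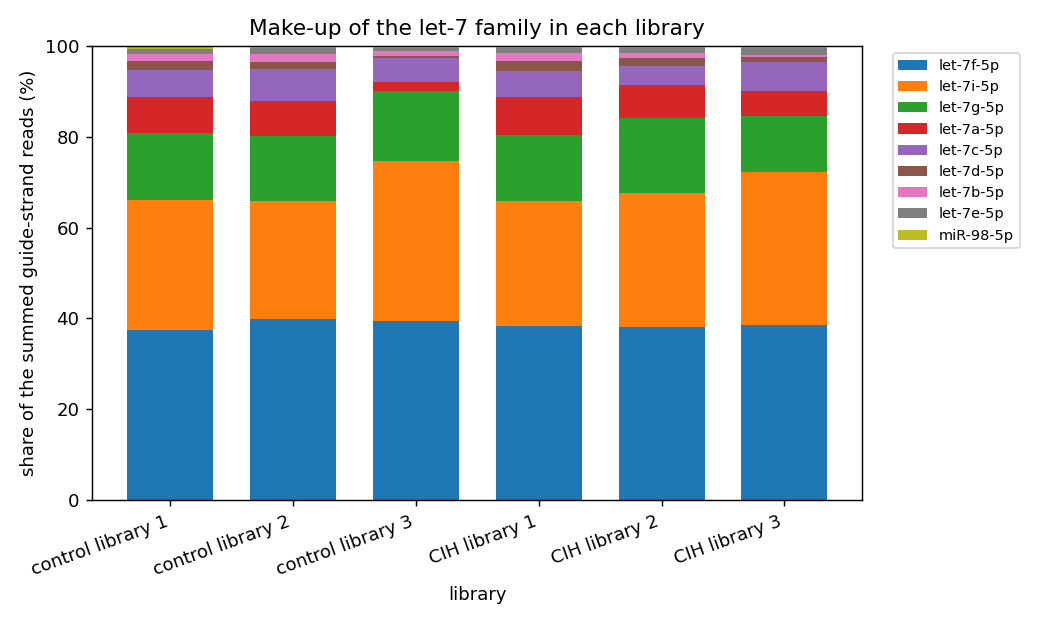
Share (%) of each member in the summed guide-strand reads of each library, as stacked bars that add to 100%. let-7f-5p holds 37.5% to 39.9% in all 6 libraries, while let-7a-5p narrows to 2.09% in control library 3 and 5.43% in CIH library 3; miR-98-5p, at most 0.580%, is barely visible at the top.

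Over all 6 libraries, no member passed the test of CIH against control. The log2 differences ran from -0.34 (let-7b-5p, SE 0.39) to 0.46 (let-7a-5p, SE 0.48), with adjusted p-values of 0.934 to 0.996 (edgeR quasi-likelihood test, Benjamini-Hochberg over 456 miRNAs). The test called 0 of 9 members and 0% of all 456 miRNAs. At an unadjusted p under 0.05 there were 0 members and 23 miRNAs (5.04%), and DESeq2 called 0 miRNAs as well, with 37 at that level. The median was 0.02 for the members and 0.04 for all miRNAs tested. The CPM ranges of the groups overlapped for all 9 members, where 11.2% of the miRNAs tested had ranges apart.

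In the libraries numbered 1 and 2, all 9 members had lower values under CIH, and none passed the test. The log2 differences ran from -0.06 for let-7g-5p and let-7d-5p to -0.51 for let-7c-5p, with a median of -0.16 against -0.03 over the 459 miRNAs tested. Without control library 1, 3 of the 9 had higher values under CIH, and 2 of 9 did without CIH library 2. edgeR's quasi-likelihood test called 0 of 9 members where it called 9.37% of all miRNAs (4.14% higher and 5.23% lower), and DESeq2 also called 0 members. At an unadjusted p under 0.05 stood 1 of 9 members, as did 21.6% of all miRNAs. That member was let-7c-5p, at -0.51 (SE 0.21, adjusted p = 0.153). Its value was -0.80 (adjusted p = 0.0427) without CIH library 1 and -0.25 without CIH library 2, fits whose spread comes from the 2 controls alone. let-7e-5p stood at -0.34 (SE 0.21, adjusted p = 0.395) and miR-98-5p at -0.31 (SE 0.23, adjusted p = 0.483). let-7b-5p stood at -0.26, let-7f-5p at -0.16, let-7a-5p at -0.15 and let-7i-5p at -0.08. CPM ranges lay apart for 4 members (let-7c-5p, let-7e-5p, let-7f-5p and miR-98-5p, each lower under CIH), where 49.7% of all miRNAs lay apart and 32.2% did so with CIH lower. The summed epithelial marker miRNAs, 7 of 7 listed and none at 0 in all libraries, were also lower there, at 408.5 and 334 CPM for control against 169.6 and 126 CPM for CIH. So was the sum of the 5 adipocyte-abundant miRNAs, at 225060 and 233419 CPM against 176178 and 153854 CPM. The 3 miRNAs of fibroblasts and stroma summed to 15709 and 12890 CPM for control against 10752 and 10647 CPM for CIH. The sums of the leukocyte, endothelial, muscle, hepatocyte, erythroid and neuronal lists overlapped between the groups there. The part of any of these lists in the result was not tested.

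In the pair numbered 3, all 9 members had a higher CPM under CIH, where 73.5% of the 456 miRNAs did. let-7a-5p was 5.08-fold higher, let-7d-5p 4.31-fold, let-7e-5p 3.52-fold, let-7c-5p 2.37-fold and miR-98-5p 2.05-fold. These 5 of 9 exceeded a 2-fold difference, as did 41.7% of all miRNAs. let-7f-5p, let-7i-5p, let-7g-5p and let-7b-5p were 1.91-fold, 1.88-fold, 1.57-fold and 1.25-fold higher. The median log2 CPM ratio was 1.04 for the members and 0.74 for all miRNAs, so most miRNAs of the pair, and not the members alone, had a higher CPM under CIH.

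TMM scaling removes most of that common shift, bringing the median of all miRNAs in the pair to 0.05. Of the members 7 of 9 were then higher under CIH, against 52.4% of all miRNAs, with a median of 0.23. let-7a-5p stood at 1.54, let-7d-5p at 1.30 and let-7e-5p at 1.01 on the log2 scale, the 3 of 9 members still beyond 2-fold, as were 23.7% of all miRNAs. let-7c-5p stood at 0.44, miR-98-5p at 0.23, let-7f-5p at 0.13 and let-7i-5p at 0.11. let-7g-5p turned to -0.15 and let-7b-5p to -0.48, so the direction of these 2 depends on the scaling. The 3 miRNAs of fibroblasts and stroma (miR-199a-3p, miR-199a-5p and miR-214-3p, none at 0) summed to 6077 CPM in control library 3 and 65453 CPM in CIH library 3, against 10647 to 15709 CPM in the other 4. Endothelial markers (2 of 2 listed) summed to 33.8 and 100.1 CPM in the pair, muscle markers (3 of 4) to 111 and 29.3 CPM, epithelial markers to 76.3 and 18.6 CPM and erythroid markers (3 of 3) to 54.8 and 21.0 CPM. The adipocyte-abundant set summed to 597090 and 316499 CPM. Within it miR-148a-3p was at 493520 and 249065 CPM and miR-378a-3p at 38662 and 5624 CPM. The others changed little, with miR-143-3p at 0.97-fold, miR-107-3p at 0.95-fold and miR-103-3p at 0.86-fold of control. The part of any of these in the result was not tested. In RNA from many cells at once, a change in the number of cells of a type and a change in the miRNA per cell cannot be told apart.

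**Figure D3:**
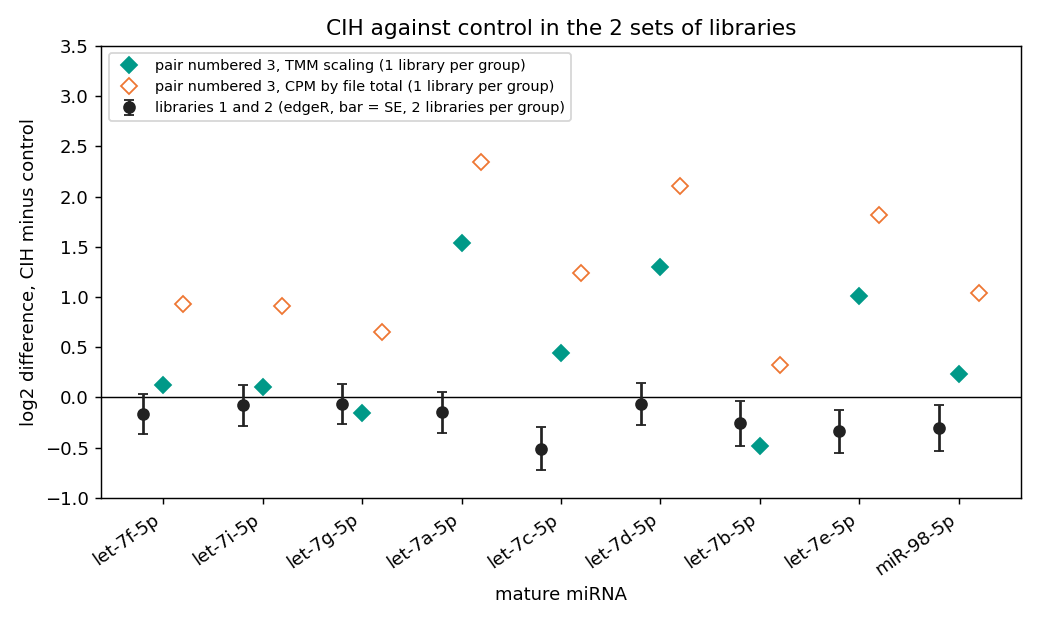
Log2 difference (CIH minus control) of each guide strand in the libraries numbered 1 and 2 (black, edgeR estimate with its SE, 2 libraries per group) and in the pair numbered 3 after TMM scaling (green) and by CPM alone (orange, open). All 9 black points lie below 0, and after TMM scaling the pair numbered 3 stands highest for let-7a-5p (1.54), let-7d-5p (1.30) and let-7e-5p (1.01).

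The difference between these 2 contrasts was tested as an interaction of group and library set. It was called for 3 of 9 members, all higher in the pair numbered 3, where it was called for 30.3% of all 456 miRNAs (16.7% higher and 13.6% lower, with 39.9% at an unadjusted p under 0.05). The interaction was 1.68 for let-7a-5p (SE 0.36, adjusted p = 0.000472), 1.36 for let-7d-5p (SE 0.37, adjusted p = 0.00481) and 1.35 for let-7e-5p (SE 0.36, adjusted p = 0.00450). let-7c-5p stood at 0.94 (adjusted p = 0.0519). The other 5 members had interactions of -0.23 to 0.54, none of which passed. The spread in this fit comes from the libraries numbered 1 and 2 alone, so a called interaction cannot be told apart from a difference between single libraries. Without control library 2, let-7e-5p missed the threshold (1.29, adjusted p = 0.0652), and let-7c-5p passed without CIH library 1 (1.36, adjusted p = 0.0177) and with no filter on low counts (1.14, adjusted p = 0.0157) but stood at 0.50 (adjusted p = 0.350) among miRNAs of at least 10 CPM. let-7d-5p missed the threshold with that last filter (0.92, adjusted p = 0.0603). Scaling by total counts let 7 of 9 members pass, against 158 of 456 miRNAs (137 higher and 21 lower).

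Between the sets, with group in the model, 5 of 9 members were called, all higher in the libraries numbered 3. Of all miRNAs 25.0% were called (11.4% higher and 13.6% lower, with 38.8% at an unadjusted p under 0.05). By sign alone 8 of 9 members were higher. The sets were split because these same counts set them apart, so the p-values between them are not independent evidence of a difference. let-7i-5p stood higher by 1.63 (log2, SE 0.24, adjusted p = 0.00961), let-7e-5p by 1.43 (SE 0.37), let-7c-5p by 1.38 (SE 0.33), let-7f-5p by 1.35 (SE 0.24) and let-7g-5p by 1.20 (SE 0.25). miR-98-5p stood at 0.75 (adjusted p = 0.103), let-7b-5p at 0.23, let-7a-5p at 0.20 and let-7d-5p at -0.05. The median was 1.20 for the members and -0.11 for all miRNAs. The calls, more than the values, depended on the settings. DESeq2 called 6 of 9 members, with miR-98-5p (0.94, adjusted p = 0.0180) added to the 5, against 152 of 456 miRNAs. The same 5 passed with RLE size factors (106 of 456 miRNAs called), with no filter on low counts (161 of 929) and among miRNAs of at least 10 CPM (83 of 257). No member passed without control library 1 (2 of 483 miRNAs called), where these 5 stood at 1.22 to 1.69. None passed without CIH library 2 (2 of 470 called), where they stood at 1.17 to 1.62. Of the 9 members, 1 passed without control library 2 (30 of 471 miRNAs called) or without CIH library 1 (34 of 483). With total counts as the scaling 0 of 9 passed, against 60 of 456 miRNAs, and the 5 stood at 0.84 to 1.29. The member counts thus moved with those of all miRNAs. Leaving out control library 3 or CIH library 3 leaves that set with 1 library and no replicates. In that order, let-7e-5p then stood at 2.07 and 0.78, let-7a-5p at 0.98 and -0.65 and let-7d-5p at 0.60 and -0.70. The direction of let-7a-5p and let-7d-5p thus turned with the library left out. Without CIH library 3 the other 7 members stood above 0.

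The passenger strands were rare next to their guides, with 1 exception. The 11 passenger names looked for were listed in all tables, and 10 passed the filter on low counts. let-7c-2-3p was not analysed here, so the let-7c-5p reads of both loci are set against let-7c-1-3p alone. The let-7f, let-7g and let-7i precursors gave at most 0.177% of their reads as passenger strands in any library, and let-7g-3p stayed at or below 12 reads. The exception was let-7d-3p, at 358, 266 and 92.3 CPM in the controls and 552, 313 and 204 CPM under CIH. It held 31.0%, 29.8% and 28.8% of the let-7d reads of controls 1, 2 and 3, and 42.5%, 38.4% and 17.2% of those of the CIH libraries. The controls of both sets thus lay within a narrow range, with CIH libraries 1 and 2 above it and CIH library 3 below it. The 95% Wilson interval was 27.1% to 30.6% for control library 3, the shallowest in let-7d reads, and 41.6% to 43.5% for CIH library 1. It covers counting error only, not the spread between libraries. In CPM, let-7d-3p was higher under CIH in 3 of 3 pairs of equal number. So were 73.5% of all 456 miRNAs in the pair numbered 3.

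In the libraries numbered 1 and 2, let-7d-3p stood at 0.59 (log2, SE 0.23, adjusted p = 0.1003) while let-7d-5p stood at -0.06, a difference between strands that was not tested. Without CIH library 2 the value of let-7d-3p was 0.86 (adjusted p = 0.000761), and without CIH library 1 it was 0.30; each leaves 1 CIH library, which is assumed to vary like the controls. No passenger strand was called there (edgeR, 0 of 10 against 9.37% of all miRNAs; 6 had higher and 4 lower values), nor over all 6 libraries (0 of 10). let-7a-1-3p, also above 10 CPM, spanned 21.2 to 39.1 CPM in the controls and 15.5 to 32.0 CPM under CIH.

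Unlike mature let-7c-5p, the passengers let-7c-1-3p and let-7b-3p each come from 1 locus, and both differed in the pair numbered 3. let-7c-1-3p, from the chromosome 16 locus, was at 2.57 to 3.97 CPM in 5 libraries and at 24.3 CPM in CIH library 3, which is 30 reads against 274 in the pair. Its interaction of group and set was 1.97 (SE 0.70, adjusted p = 0.0294), and at similar values it missed the threshold with DESeq2 (1.92, adjusted p = 0.166), without control library 1 (1.86, adjusted p = 0.117) and without CIH library 1 (1.92, adjusted p = 0.0626). let-7b-3p, from the chromosome 15 locus, was at 7.87 CPM (65 reads) in control library 3 and at 0.71 CPM (8 reads) in CIH library 3, against 3.19 to 5.56 CPM in the other 4. Its interaction was -4.03 (SE 0.79, adjusted p = 0.000178), while that of let-7b-5p was -0.23. In all, the interaction was called for 2 of 10 passengers, 1 in each direction, against 30.3% of all miRNAs.

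**Figure D4:**
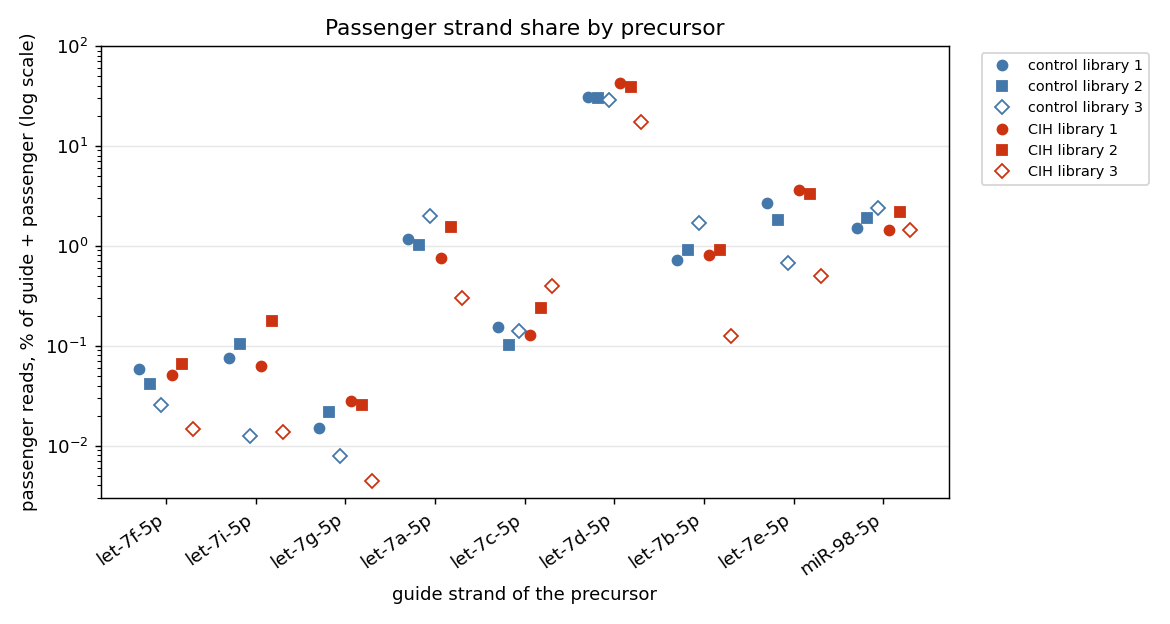
Passenger reads as a percentage of guide plus passenger reads (log scale) for each precursor and library; blue marks control, red CIH, and open diamonds the libraries numbered 3. The let-7d precursor stands apart at 17.2% to 42.5%, and every other precursor gives at most 3.62% in any library.

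The miRNAs encoded next to let-7 belong to the miR-99/100 and miR-125 families. In the libraries numbered 1 and 2, edgeR called 0 of 5 partners (miR-99a-5p, miR-99b-5p, miR-100-5p, miR-125a-5p and miR-125b-5p), whose log2 differences ran from -0.07 to 0.36 with 3 of 5 higher, and over all 6 libraries it called 0 of 5. The interaction of group and set was called for 4 of 5, 3 higher and 1 lower, against 30.3% of all miRNAs. It was 2.54 for miR-125b-5p and 1.68 for miR-125a-5p. It was 1.01 for miR-99a-5p (adjusted p = 0.0289), which missed the threshold without CIH library 2 (0.92, adjusted p = 0.0615), with DESeq2 (0.95, adjusted p = 0.0531) and among miRNAs of at least 10 CPM (0.57, adjusted p = 0.191). It was -0.91 for miR-99b-5p (adjusted p = 0.0491), which missed the threshold without any 1 of the 4 libraries numbered 1 and 2 (adjusted p of 0.0702 to 0.307) and stood at 0.04 with total counts as the scaling. miR-125b-5p was at 387 CPM in control library 3 and at 2817 to 3942 CPM in the other 5, and miR-125a-5p at 139 CPM against 713 to 1002 CPM. Both thus share with let-7a-5p and let-7d-5p a low value in control library 3. miR-99b-5p, whose precursor lies beside that of let-7e and whose interaction had the opposite sign, was at 5888 to 8610 CPM over the 6 libraries, where let-7e-5p was at 296 to 1522 CPM.

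The miRNAs outside the family whose profile over the 6 libraries was nearest to that of the summed guide strands were miR-374b-5p, miR-374c-3p, miR-342-3p, miR-30c-5p and miR-31-3p. Likeness was the root mean square difference of centred log2(CPM + 0.5) values, at 0.13, 0.13, 0.17, 0.20 and 0.20, with a median of 0.91 over 246 miRNAs of at least 10 CPM. miR-374b-5p was at 176, 155 and 211 CPM in the controls and at 141.5, 140.5 and 486 CPM under CIH. miR-374c-3p had nearly the same values in each library, and whether both names count the same reads was not tested. Among the members, let-7f-5p lay at 0.03 from the summed profile and let-7g-5p at 0.12, while let-7b-5p, let-7a-5p and let-7d-5p lay at 0.57, 0.70 and 0.75. These values describe 6 libraries that share their sets and their scaling.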

How the data were processed

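RNA of adipocytes was taken up with kits for miRNA and total RNA and read on an Illumina instrument, per the labels. Per the file headers 3 of the 6 tables hold FPKM, but the deposited numbers are whole counts whose sum differs between libraries, so all were used as raw counts. featureCounts 1.5.0-p3, DESeq 1.8.3 and GRCm38 appear in the submitters' processing notes without a role; trimming and alignment were not given there. CPM used each table's total, and there were 0 columns of other samples.

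The members and lists were chosen with earlier results of these data known. The text names the 9 members, their passengers of at least 10 CPM on average or called in a test, 5 cluster partners and the 5 miRNAs nearest the summed profile; let-7g-3p, let-7j and let-7k were added as descriptions. A further part of the naming rule, by shared seed, was not used here.

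The 929 names listed by all 6 tables hold at least 99.97% of every library and were tested with edgeR 4.0.16 in R 4.3.3 (quasi-likelihood F test, robust, TMM, filterByExpr), with Benjamini-Hochberg adjustment at 0.05. All 9 members passed the filter. Alternatives were DESeq2 1.42.0, limma-voom (limma 3.58.1), other scalings and filters, a replicate block and leaving out each library; the library set as a term and a sign-flip permutation of the shares over pairs were chosen after seeing the data. An SE is the log2 difference over the root of F. The fits were tested on simulated counts. Deviations from the group means correlated at 0.35, 0.39 and 0.40 between libraries whose titles carry the same number (257 miRNAs). The block on equal numbers was planned as an alternative and does not rest on these values. Control 1 and CIH 2 reached 0.43, however, and control 2 and CIH 1 stood at 0.20. Libraries numbered 3 correlated negatively with those numbered 1 and 2 of the other group. Deviations were taken from each group's own mean, so a library 3 that stands apart puts libraries 1 and 2 on the other side of that mean. Positive values among the libraries numbered 1 and 2 can follow from this without any pairing. The pairing within the libraries numbered 1 and 2 is therefore an assumption. Libraries within a group differed beyond counting noise (chi-square over its degrees of freedom at least 135), so each is 1 replicate. Shares were compared with exact permutation tests (scipy 1.17.1, Python 3.11.15). At totals of 6291101 to 11264151 counts, the floor of 3 counts is 0.266 to 0.477 CPM; no source mentions molecular identifiers, so intervals and floors cover counting error only.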

Additional observations from a re-analysis of the deposited data

Results flagged for a closer look

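The contrast of CIH with control differed between the pair numbered 3 and the libraries numbered 1 and 2, by a test of the interaction, for let-7a-5p (1.68 on the log2 scale), let-7d-5p (1.36), let-7e-5p (1.35) and the passenger strands let-7c-1-3p (1.97) and let-7b-3p (-4.03). The pair numbered 3 holds 1 library per group, and the same test called 30.3% of all miRNAs.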

How the results depend on the processing

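Over 6 libraries 0 miRNAs were called under every alternative run; signs near 0 turned. In the order let-7c-5p, let-7f-5p, let-7i-5p, the log2 differences were -0.059, -0.10 and -0.075 with both RLE size factors and DESeq2, -0.16, -0.16 and -0.14 among miRNAs of at least 10 CPM, -0.21, -0.071 and -0.024 with limma-voom, -0.035, -0.067 and -0.041 without the 10 most abundant miRNAs and -0.19, -0.062 and -0.014 with the library set as a term. Total counts as scaling gave 0.20 for let-7g-5p and 0.14 for miR-98-5p. Leaving out 1 library gave -0.88 to 0.41 for let-7c-5p, -0.62 to 0.84 for let-7e-5p, -0.70 to 0.55 for let-7f-5p, -0.62 to 0.47 for let-7g-5p, -0.81 to 0.78 for let-7i-5p and -0.48 to 0.17 for miR-98-5p. With the replicate number as a block over 6 libraries let-7c-5p, let-7f-5p and let-7i-5p stood at -0.21, -0.062 and -0.012, 0 miRNAs were called, and the block within the libraries numbered 1 and 2 called 48 miRNAs against 43; it changed no call of a member. In the libraries numbered 1 and 2 the filter at 10 CPM left 16 calls and gave 0.019 for let-7d-5p and 0.013 for let-7g-5p; total counts split the calls 7 higher and 27 lower against 19 and 24. Leaving out 1 library there gave 6 (without control library 2) to 91 calls (without CIH library 2), with 14 without control library 1 and 23 without CIH library 1, and -0.60 to 0.043 for let-7b-5p, -0.21 to 0.10 for let-7d-5p, -0.10 to 0.0034 for let-7g-5p and -0.11 to 0.023 for let-7i-5p. The family share difference there was -1.37 percentage points without the 10 most abundant, and -1.09 to -0.32 with 1 library left out. Between the sets, total counts left 60 calls (17 higher and 43 lower, against 52 and 62) and gave -0.068 for let-7a-5p and -0.16 for let-7b-5p; let-7a-5p was -0.033 among miRNAs of at least 10 CPM, and let-7d-5p was 0.14 with RLE and with DESeq2. Leaving out 1 library gave 2 (without control library 1 or CIH library 2) to 253 calls (without control library 3), -0.65 to 0.98 for let-7a-5p and -0.70 to 0.60 for let-7d-5p. For the interaction, total counts called 137 higher and 21 lower, against 76 and 62, and gave 0.69 for let-7b-5p, 0.86 for let-7g-5p and 0.038 for miR-99b-5p. The filter at 10 CPM gave -0.15 for let-7f-5p, -0.25 for let-7i-5p and -0.12 for miR-100-5p, no filter gave 0.095 for let-7g-5p, and leaving out 1 library gave -0.48 to 0.24 for let-7b-5p. This fit cannot be made without control or CIH library 3. The causes were not tested.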

Other observations

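A further family name, let-7j, was listed at 10, 8 and 20 reads in controls 1, 2 and 3 and at 5, 7 and 52 reads in the CIH libraries. That is 0.681 to 4.62 CPM, with an exact Poisson 95% interval of 3.45 to 6.05 CPM in CIH library 3. With group in the model it was higher in the libraries numbered 3 by 2.26 (log2, SE 0.47, edgeR adjusted p = 0.0180), where 25.0% of all miRNAs differed. That call was lost with total counts as the scaling (1.93, adjusted p = 0.0618) and when any 1 library other than control library 3 was left out (1.98 to 2.49, adjusted p of 0.0565 to 0.0779). let-7k was analysed in the pair numbered 3 alone, at 0 reads in control, where the floor of 3 counts is 0.363 CPM, and at 3 reads in CIH.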
